A study of Mus musculus with 8 samples.

Results

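Bone morphogenetic protein (BMP) signalling was followed through 10 mouse genes chosen by symbol: the ligand gene Bmp4, the receptor gene Bmpr1a, the signal transducers Smad1, Smad5 and Smad4, the inhibitor Smad7 and the target genes Id1, Id2, Id3 and Id4. All 10 were found among the 15359 named genes of the deposited table, in 12 of its 19776 transcript rows; Smad5 had 3 rows and every other gene 1. A gene's values below are those of its transcript with the highest mean FPKM (fragments counted for a transcript relative to its length and to the library's total).

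The study set 4 cultured cell types of strain C57BL/6 side by side, each with 1 RNA-seq library and 1 m6A-seq library, in which fragments carrying N6-methyladenosine (m6A) were enriched with an antibody. Embryonic stem cells (ESC, passage 14) and induced pluripotent stem cells (iPSC, passage 22) grew in 20% of the serum replacement KOSR with leukemia inhibitory factor at 1000 units/ml. Neural stem cells (NSC, passage 16) came from E12.5 fetal brain and grew with EGF and bFGF, each at 10 ng/ml. Testicular Sertoli cells (SC, passage 2) grew in medium with 10% FBS, that is, fetal bovine serum. Cell type, passage and medium therefore cannot be told apart, and with 1 library per cell type and assay no difference below has a replicate check or a p-value. In such bulk RNA, fewer cells that express a gene and less RNA per cell cannot be told apart either.

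BMP ligands bind pairs of type I and type II receptor kinases at the cell surface. The type I receptor, such as BMPR1A, phosphorylates SMAD1, SMAD5 and SMAD9, which join SMAD4 and enter the nucleus. There they raise transcription of the Id genes and also of Smad6 and Smad7, whose products block the receptors in a negative feedback. Id proteins hold a helix-loop-helix domain without a DNA-binding basic region, so that they capture E proteins (TCF3, TCF4, TCF12) and keep them and their partners off DNA. In mouse ESC cultures, BMP together with leukemia inhibitory factor is known to sustain self-renewal by way of Id genes, and in neural progenitors BMP and Id proteins restrain neuronal differentiation.

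The libraries carried the markers of their labels with gaps. All 8 pluripotency markers examined reached 1 FPKM in ESC and in iPSC, among them Pou5f1 at 602 and 554 FPKM and Nanog at 254 and 232. In SC, 7 of 7 Sertoli cell markers in the table did so, with Sox9 at 106, Wt1 at 105 and Amh at 3.32 FPKM. In NSC 6 of 8 neural stem cell markers did, but Sox1, one that defines early neural progenitors, was listed at 0 there, Pax6 stood at 7.46 FPKM and Nes at 9.10, below its 85.9 in SC. Of 8 fibroblast and myoid markers, 6 reached 1 FPKM in SC, 4 in ESC, 7 in iPSC and 3 in NSC, where Col1a2 was listed at 0. Their levels summed to 7994 FPKM in SC against 95.8, 194 and 713 in those 3, with Vim and Tagln the highest in SC. Vim alone stood at 3438 FPKM in SC and at 708 in NSC, so the NSC sum was nearly all Vim. Thy1 and Pdgfra were under 1 FPKM in SC, at 0.521 and 0.568. Of 8 germ and Leydig cell markers, 2 reached 1 FPKM in SC, the Leydig cell genes Star at 56.0 and Cyp11a1 at 46.3, while Hsd3b1 and Insl3 stood at 0.972 and 0.903. Of 6 neuron and glia markers, 4 did so in SC, with Tubb3 at 828 FPKM. The part of these cells in the high SC values given below was not tested. The deposited columns were not on one scale: relative to the mean of the 4 libraries, the typical gene stood at 0.63 log2 units in SC, 0.06 in NSC, -0.33 in iPSC and -0.34 in ESC, so the effect of scaling by this median ratio is stated beside the orders and calls.

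The m6A results turn on short sequence sites. In mammalian mRNA the mark is placed mostly at an adenosine within GGAC-type motifs, and it is known to be dense around stop codons. The letters GGAC followed by A, C or T were searched on the transcript strand, where matches cannot overlap, in GENCODE M21 transcripts (GRCm38) matched by RefSeq accession. Of 12892 expressed genes with such a transcript, 96.1% held at least 1 match in the coding sequence, 80.7% in the 3' UTR and 78.9% within 200 bases of the end of the stop codon, so a match is common and marks no proven site. Shown here, with the motif in capitals and 10 bases on each side, is the match nearest the stop codon in the main transcript of 8 of the genes, since TsTS, which the table lists between CDS and 3' UTR, was the region most often called among the 10 genes.
Id1: gcgcactgagGGACCagatggactc
Id2: tggcatttggGGACTtttttttttc
Id3: tgatctccaaGGACAagaggagctt
Id4: gcgccgccgcGGACCccactcaccg
Bmp4: tccagagggcGGACAcacacacaca
Bmpr1a: catcctatgaGGACAtgcgtgaggt
Smad1: cttgaaggatGGACAagtcagacag
Smad5: tatttttagtGGACTtgttttaatt

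The adenosine of these motifs lay 17 bases after the end of the stop codon in Id1, 18 after it in Id2 and 23 after it in Bmp4. Those of Smad5 and Smad1 lay 35 and 60 bases after it, in the 3' UTR as well. In Id3, Id4 and Bmpr1a the nearest motif lay inside the coding sequence, at -22, -74 and -193 bases from the end of the stop codon. The 3 short Id transcripts were crowded with motifs around that point: Id1 held 6 within 200 bases of it, Id2 7 and Id3 7, against a median of 1 over all expressed genes. Id4 and Smad4 held 2 each, as did Bmp4, and Bmpr1a, Smad1, Smad5 and Smad7 held 1 each.

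**Figure D1:**
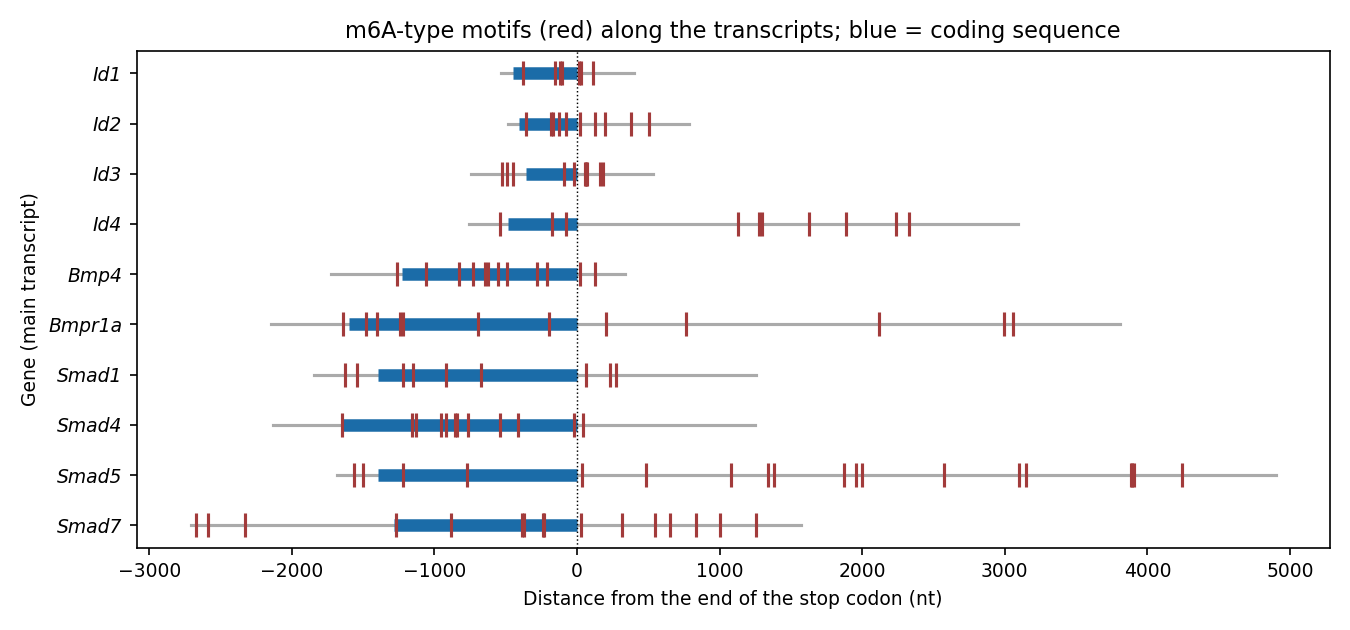
Positions of GGAC followed by A, C or T (red ticks) along the main transcript of each of the 10 genes, with distance from the end of the stop codon in nucleotides on the x axis; blue bars are coding sequences and grey lines untranslated parts. Id1, Id2 and Id3 have 6, 7 and 7 motifs within 200 bases of the stop codon, while the motifs of Smad5 are spread over a 3' UTR of 4899 bases.

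Among the Id genes, Id1 (NM_010495) spanned a wide range, with 3.94 FPKM for ESC, 24.8 for iPSC, 77.7 for NSC and 93.3 for SC. Its SC level was 23.7 times its ESC level, and its iPSC level 6.29 times, while NSC and SC differed by a ratio of only 1.20. After scaling, NSC stood above SC, at 74.7 and 60.1. ESC thus held the least Id1 of the 4 on both scales, and only 0.963% of genes had a lower ESC minus iPSC difference.

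Id3 (NM_008321) took another order, with 50.8 FPKM for ESC, 19.5 for iPSC, 3.89 for NSC and 143 for SC. SC stood 36.8 times above NSC, and ESC 2.61 times above iPSC. Id1 and Id3 were thus opposed in both places: between ESC and iPSC, and in NSC, where Id1 was near its highest level and Id3 at its lowest.

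Id2 (NM_010496) was even in 3 libraries, with 7.70 FPKM for ESC, 9.30 for iPSC and 8.40 for NSC, and reached 54.8 for SC. SC was 5.89 times above the next library, iPSC, and the other 3 lay within a ratio of 1.21 of each other, so their order carries little weight. After scaling, NSC was the lowest, at 8.07 against 9.76 in ESC. Id4 (NM_031166) was low throughout, at 3.09, 1.47, 4.41 and 1.26 FPKM over ESC, iPSC, NSC and SC. It was the one Id gene with its highest value in NSC and its lowest in SC, but ESC and NSC were within a ratio of 1.43 and iPSC and SC within 1.17.

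The upstream genes were described next, from the ligand inwards. Bmp4 (NM_007554), which encodes a secreted BMP, had 0.329 FPKM for ESC, 3.62 for iPSC and 2.49 for SC, and the NSC value was a listed 0. Only iPSC and SC thus exceeded 1 FPKM. Bmpr1a (NM_009758), the type I receptor gene, had 2.70 FPKM for ESC, 10.5 for iPSC, 18.8 for NSC and 25.4 for SC. It was 9.40 times higher in SC than in ESC, while NSC and SC were within 1.35-fold and exchanged places after scaling (18.1 and 16.4).

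The transducer genes were lowest in ESC. Smad4 (NM_008540), the partner shared by BMP and TGF-beta signals, followed Bmpr1a with 5.42, 16.3, 38.9 and 41.4 FPKM over ESC, iPSC, NSC and SC, where the last pair differed by a ratio of 1.07 and exchanged places after scaling (37.4 and 26.7). Smad1 (NM_008539) stood at 2.70, 2.90, 10.2 and 23 FPKM in the same order of libraries. Its pluripotent values were nearly equal, and SC stood 8.53 times above ESC. Smad5 (NM_008541), whose product is close to SMAD1 in sequence and function, had its highest level in NSC, at 25.2 FPKM against 1.92 in ESC, 3.56 in iPSC and 6.88 in SC. After scaling, iPSC and SC came level, at 4.47 and 4.44. The balance of these sister transducers therefore differed between the differentiated libraries, with Smad5 above Smad1 in NSC and Smad1 above Smad5 in SC on the FPKM scale. The other Smad5 rows were minor: NM_001164041 and NM_001164042 reached at most 0.950 and 1.19 FPKM, both in NSC, and the first was listed at 0 in ESC.

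The inhibitor gene Smad7 (NM_001042660) had 17.3 FPKM for ESC, 5.03 for iPSC, 0.478 for NSC and 32.2 for SC. It had the widest FPKM ratio of the members with a value above 0 in every library, 67.4-fold from NSC to SC, and the same order as Id3. That ratio rests on an NSC value under 1 FPKM. As log2(FPKM + 1), Id3 spread wider between NSC and SC, by 4.88 against 4.49 for Smad7. After scaling, ESC and SC exchanged places for Smad7, at 21.9 and 20.8.

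**Figure D2:**
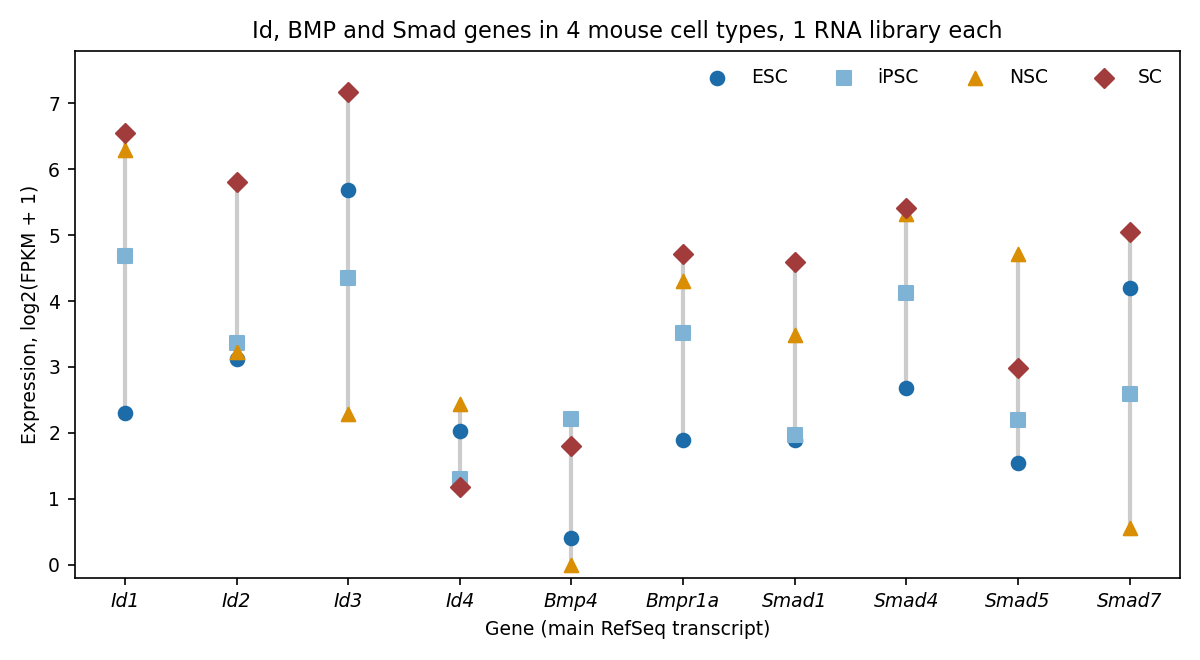
Expression of the 10 genes as log2(FPKM + 1) on the y axis, with 1 point per cell type (1 RNA library each) and a grey line from the lowest to the highest. SC is the highest point for 7 genes and ESC the lowest for 6, while Id3, Bmp4 and Smad7 have their lowest point in NSC; after scaling SC is highest for 3 genes and ESC lowest for 5.

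By position in the order, 7 of the 10 genes were highest in SC (Id1, Id2, Id3, Bmpr1a, Smad1, Smad4 and Smad7), against 49.5% of the 13577 genes at 1 FPKM or more in any library. ESC was the lowest library for 6 (Id1, Id2, Bmpr1a, Smad1, Smad4 and Smad5), against 34.3% of all genes, though for Id2 by a ratio of only 1.09 to NSC. After scaling, only Id2, Id3 and Smad1 remained highest in SC, against 31.4% of all genes, and 5 (Id1, Id4, Bmpr1a, Smad4 and Smad5) were highest in NSC, against 26.1%, so which differentiated library led depended on the scale for Id1, Bmpr1a and Smad4. The count lowest in ESC after scaling was 5, without Id2, against 27.4%.

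Shared orders were looked for after the values had been seen. Id1, Bmpr1a, Smad1 and Smad4 shared the order SC, NSC, iPSC, ESC from high to low. It was the order of 15.5% of all genes. Of 42 pathway genes 5 had it (Nbl1, Twsg1, Bmper, Smad2 and Ski), though Bmper exceeded 1 FPKM in SC alone. After scaling, 4 of the 42 pathway genes kept it, without Ski, against 8.28% of all genes. Of the members Smad1 alone kept it, because NSC then stood above SC for the other 3. Id3 and Smad7 shared the order SC, ESC, iPSC, NSC, which 7.23% of all genes and 4 of 42 pathway genes had (Bmp6, Bambi, Smad6 and Smad9). Smad6, encoding the other inhibitory SMAD, had it too, at 3.81, 1.21, 0.113 and 49.9 FPKM over ESC, iPSC, NSC and SC. So did Bambi, a pseudoreceptor that dampens BMP and TGF-beta signals, at 3.27, 1.69, 0.0298 and 12.3 FPKM. Bmp6 and Smad9 exceeded 1 FPKM in SC alone, so the rest of their order rests on values under that level. Id1 was not in this order, nor was any of the 7 BMP-responsive transcription factor genes that reached 1 FPKM. After scaling, Id3 and the same 4 pathway genes (Bmp6, Bambi, Smad6 and Smad9) kept it and Smad7 did not (5.57% of all genes).

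**Figure D3:**
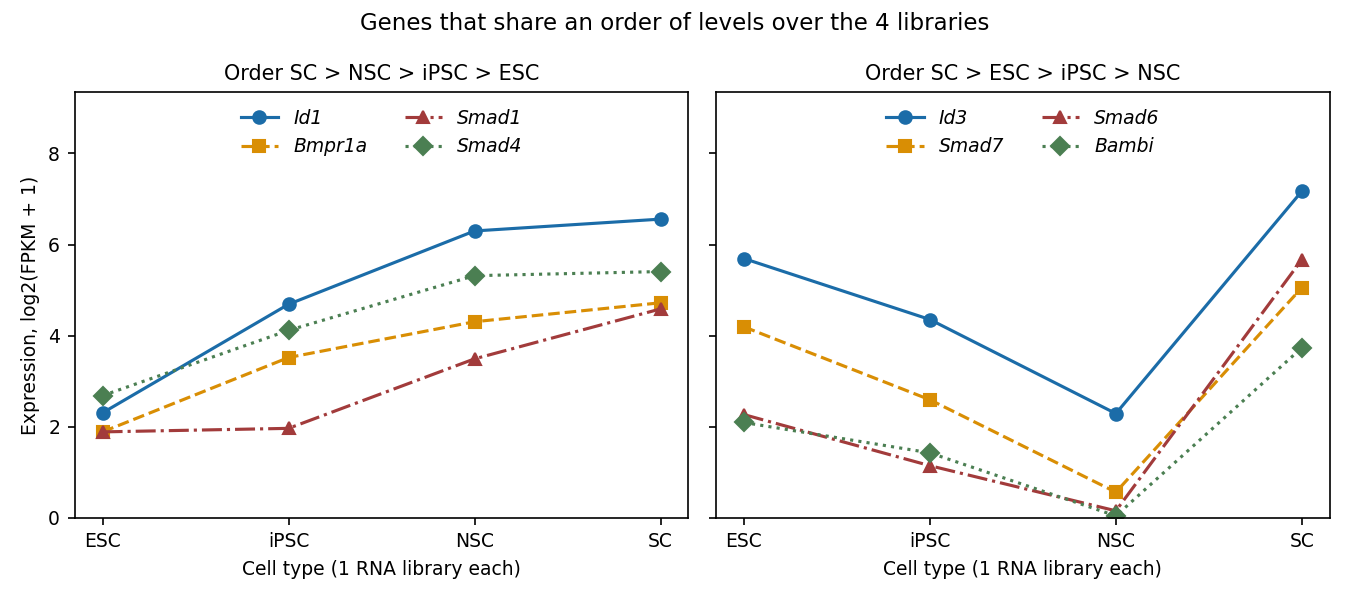
Expression as log2(FPKM + 1) on the y axis over the 4 cell types (1 RNA library each) for the 4 members in the order SC, NSC, iPSC, ESC (left), and for Id3 and Smad7 with the pathway genes Smad6 and Bambi in the order SC, ESC, iPSC, NSC (right). The pathway genes Bmp6 and Smad9, above 1 FPKM in SC alone, had the right-hand order too and are not drawn. The right-hand genes dip in NSC, where Id3 stands at 3.89 FPKM and Smad7 at 0.478, and the left-hand genes are high there; after scaling NSC is above SC for Id1, Bmpr1a and Smad4, and ESC is above SC for Smad7.

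The promoters of Id2 and Id3 are shown because these are textbook SMAD target genes whose levels parted the 4 cell types differently. GGCGCC, a GC-rich element of the kind that SMAD1 and SMAD5 bind, and GTCTG with its reverse complement CAGAC, which holds the short SMAD4-type box, were searched on both strands; the first reads the same on both. In 300-base windows from RefSeq (GRCm38.p6), reaching from upstream of the gene's start to just inside it, 12% of 27025 promoters held GGCGCC and 49.7% held GTCTG or CAGAC. The Id2 window (chr12:25096043-25096342, minus strand) held 1 GGCGCC and the Id3 window (chr4:136143572-136143871, plus strand) held 1 CAGAC and 1 GTCTG, in capitals below. Windows of Id4 and Bmpr1a also held 1 GGCGCC, and those of Bmp4 and Smad1 held neither motif. Smad5 had several windows: overlapping ones shared 1 GGCGCC, and another further downstream held 1 CAGAC and no GGCGCC. No window was available for Id1. A match describes letters only and was not measured as bound in these cells.
Id2: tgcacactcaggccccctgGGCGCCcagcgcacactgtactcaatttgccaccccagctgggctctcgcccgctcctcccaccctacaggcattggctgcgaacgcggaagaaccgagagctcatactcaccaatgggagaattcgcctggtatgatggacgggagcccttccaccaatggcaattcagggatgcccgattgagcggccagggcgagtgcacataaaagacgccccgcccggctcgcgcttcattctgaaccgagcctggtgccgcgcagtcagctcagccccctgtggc
Id3: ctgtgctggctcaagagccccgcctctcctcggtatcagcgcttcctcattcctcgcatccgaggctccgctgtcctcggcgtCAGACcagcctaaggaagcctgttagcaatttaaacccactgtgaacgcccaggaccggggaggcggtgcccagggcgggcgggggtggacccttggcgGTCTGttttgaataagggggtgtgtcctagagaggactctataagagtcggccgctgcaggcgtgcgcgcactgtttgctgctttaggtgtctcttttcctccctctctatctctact

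The comparison of the pluripotent pair with the differentiated pair asked which of these genes separate pluripotent from lineage-restricted cells. Expression was taken as log2(FPKM + 1), a scale on which changes of low genes appear smaller than they are. A call required both libraries of one pair to exceed both of the opposite pair by 2-fold or more. All 10 genes reached 1 FPKM in at least 1 library. Id1, Smad1 and Smad4 were called lower in the pluripotent pair, 3 of 10 against 12% of all genes, and 0 of 10 were called higher, against 5%. Their mean log2 differences were -2.93, -2.11 and -1.96. Smad5 and Bmpr1a had differences of nearly the same size, -1.98 and -1.81, but missed the call because iPSC lay within 2-fold of SC for Smad5 and of NSC for Bmpr1a.

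The median over the 10 genes was -1.54, and that over all genes tested -0.64, with 6 of the 10 genes below the all-gene median and 4 above it (Id3, Id4, Bmp4 and Smad7). After scaling, the medians were -0.92 and -0.15 and the call remained for Smad1 alone (6.54% of all genes), at -1.53, while Id1 had -2.29 and Smad4 -1.32. Id3 (0.29), Smad7 (0.58), Id4 (-0.14) and Id2 (-1.27) were not called on either scale, nor was Bmp4, for which no difference is given because its NSC value is a listed 0. For Id3, Smad7 and Id4 the pairs do not describe the data, since the differentiated libraries held both their highest and their lowest value. SC was the highest and NSC the lowest for Id3 and Smad7, and the reverse for Id4. After scaling Id2 joined them (35.3 in SC, 8.07 in NSC), while ESC was the highest for Smad7 (21.9 against 20.8 in SC).

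Between the pluripotent libraries, 6 of 10 genes differed 2-fold or more, against 26.5% of all genes. ESC was higher for Id3 (log2 difference 1.34) and Smad7 (1.60), 2 of 10 against 13% of genes, and lower for Id1 (-2.38), Bmp4 (-1.80), Bmpr1a (-1.63) and Smad4 (-1.43), 4 of 10 against 13.6%. The ligand, its receptor, the common SMAD and Id1 were thus higher in iPSC, and the inhibitor Smad7 and Id3 higher in ESC. Some markers of other cells moved in the same contrast. The fibroblast and myoid markers summed to 95.8 FPKM in ESC and 194 in iPSC, with Tagln at 1.12 and 27.7 and Acta2 at 0.247 and 18.8. The germ and Leydig cell markers summed to 58.2 and 130.1, with Dazl at 4.51 and 26.8. Others in these lists were level or lower in iPSC, with Fn1 at 59.7 and 60.4, Thy1 at 2.80 and 2.68 and Insl3 at 8.58 and 0.658. The neuron and glia markers summed to 20.9 and 28.5, with Tubb3 at 9.41 and 22.0 but Olig2 at 9.76 and 5.30. The part of such cells in these differences was not tested. Smad1 (-0.08), Id2 (-0.24), Smad5 (-0.65) and Id4 (0.73) lay inside 2-fold. The median of all genes was 0.04 here, and the same 6 genes were called after scaling.

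Across 10972 genes, the ESC minus iPSC difference ran with transcript length (Spearman's rho -0.46) and with GC content (0.49), a description over genes of the same pair of libraries. Bmpr1a, at 5956 bases and 41.3% GC, lay on the side this trend gives, as did Smad4 at 3384 and 49.4% and Id3 at 1278 and 55.6%, beside medians of 2860 bases and 50.9%. Bmp4, at 2064 bases and 52.5%, lay against it. Id1 did too, being the shortest at 934 bases with 55.2% GC and yet lower in ESC. Smad7 was long, at 4278 bases, but rich in GC at 56.9%. The part of length and GC content in these differences was not tested.

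Between the differentiated libraries, 7 of 10 genes differed 2-fold or more, against 50.6% of all genes. NSC was lower for Id3 (log2 difference -4.88), Smad7 (-4.49), Id2 (-2.57) and Smad1 (-1.10), and for Bmp4, listed at 0 there, which made 5 of 10 against 35.6% of genes. It was higher for Smad5 (1.73) and Id4 (1.26), 2 of 10 against 15%. Only 1.98% of all genes lay further towards SC than Id3, and 2.59% than Smad7. Id1 (-0.26), Bmpr1a (-0.42) and Smad4 (-0.09) lay within 2-fold, and these 3 turned to 0.31, 0.13 and 0.47 after scaling, so no direction is given for them. The call of Smad1 was lost after scaling (-0.55), where the all-gene median moved from -0.51 to -0.01.

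**Figure D4:**
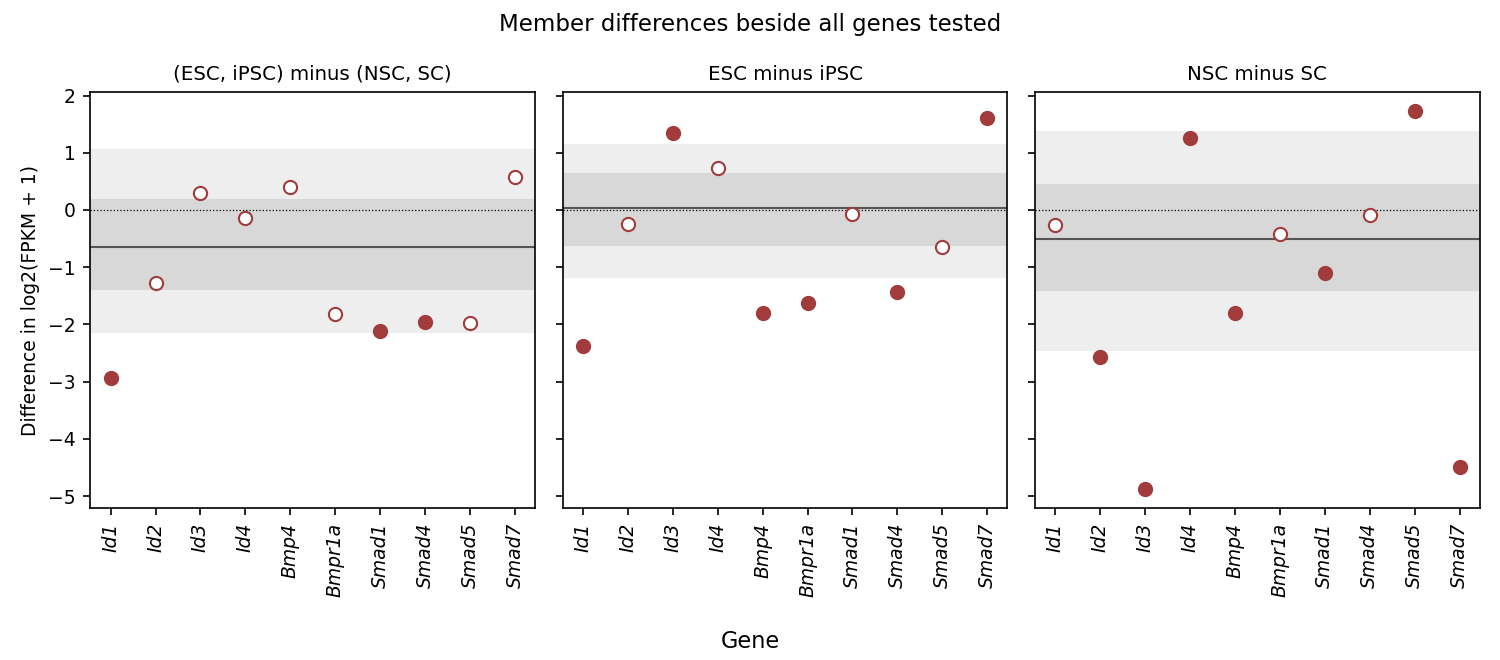
Differences in log2(FPKM + 1) of the 10 genes for the 3 comparisons, with the gene on the x axis; filled points were called at 2-fold or more and open points were not. The line and the dark and light bands are the median, the middle 50% and the middle 80% of all genes tested; Id3 at -4.88 and Smad7 at -4.49 lie far below the bands for NSC minus SC, and Bmp4 rests there on a value listed at 0.

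The rest of the pathway was taken from 6 lists of 62 genes, 51 of them in the table. In the comparison of the pairs, 42 reached 1 FPKM in a library, of which 3 were called higher and 7 lower in the pluripotent libraries, against 5% and 12% of all genes, with a median log2 difference of -1.20 beside -0.64 for all genes. After scaling these were 3 and 5, without Bmpr2 and Ski, against 8.43% and 6.54%. Of 5 BMP ligand genes tested, 1 was higher, Gdf3, a TGF-beta family member of pluripotent cells, at 35.8 FPKM for ESC and 33.3 for iPSC and with a listed 0 in both differentiated libraries. Of 8 receptor genes 1 was higher, the co-receptor gene Eng, at 12.9, 3.75, 1.03 and 1.11 FPKM over ESC, iPSC, NSC and SC. The 2 lower ones were Bmpr2, encoding the main type II BMP receptor, at 0.186, 1.22, 10.9 and 3.99, and the co-receptor gene Rgmb, at 1.08, 1.54, 14.3 and 13.2.

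Among 8 antagonist genes tested 1 was lower, Nbl1, a secreted BMP binder, at 0.650, 1.26, 32.4 and 151 FPKM over ESC, iPSC, NSC and SC. Of 11 other Smads and Smad regulators 3 were lower and 0 higher. They were Smad3, a transducer of TGF-beta, at 1.89, 1.87, 13.6 and 22.9, the SMAD co-repressor gene Ski at 7.89, 10.8, 27.4 and 33.3, and Tob1, a growth inhibitor that binds SMADs, at 8.27, 6.31, 50.1 and 124. Of 7 BMP-responsive transcription factor genes 1 was higher, Tbx3, a regulator of naive pluripotency, at 31.7 FPKM for ESC, 7.08 for iPSC and 0.239 for SC, with a listed 0 for NSC.

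The E proteins, the binding partners of the Id proteins, stood highest in NSC as main transcripts. Tcf12 was at 0.498, 2.49, 31.1 and 14.2 FPKM over ESC, iPSC, NSC and SC and was the 1 of 3 called lower in the pluripotent pair. Tcf4 was at 3.54, 1.16, 21 and 1.95, and Tcf3, also called E2A, at 5.24, 7.40, 14.8 and 9.27. Summed over transcripts, Tcf3 stood at 30.0, 28.9, 58.5 and 29.5 FPKM, so NSC was again the highest. In NSC the E protein genes thus stood beside high Id1 and low Id3.

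Between ESC and iPSC, 6 of 31 pathway genes tested were higher in ESC and 6 in iPSC, against 13% and 13.6% of all genes. Among those whose higher value reached 5 FPKM, the ESC-high genes were Bmp7 (7.96 and 1.54 FPKM), Eng and Tbx3. The iPSC-high ones were Smad2, another TGF-beta transducer (2.49 and 6.02), the ubiquitin ligase gene Smurf2, whose product degrades SMADs (2.06 and 6.32), the co-repressor gene Skil (1.08 and 5.53) and Junb, a BMP- and serum-responsive factor (8.26 and 25.8).

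Between NSC and SC, 8 of 39 pathway genes were higher in NSC and 23 in SC, against 15% and 35.6% of all genes, with a median of -1.28 beside -0.51 for all genes. After scaling, 10 were higher in NSC and 15 in SC, against 22% and 22.3% of all genes. The genes named next kept their calls, while Fst and Twsg1 among the antagonists and Smad2, Smad9, Tob1 and Ppm1a among the Smads and regulators lost theirs. In SC 7 of 8 antagonist genes tested were higher, or 5 after scaling, with Fstl3 at 0.112 and 82.8 FPKM in NSC and SC, Bmper at 0.325 and 41.2 and Bambi as above. Of 11 Smads and regulators 7 were higher in SC, or 3 after scaling, and 0 in NSC on either scale, among them Smad6, Skil (0.0122 and 16.2, or 0.841 and 23.1 summed over transcripts) and Smurf1 (3.46 and 41.1). Of 4 ligand genes 3 were higher in SC on both scales, of which Gdf6 reached 16.7 FPKM for SC, with a listed 0 for NSC. The receptor genes were divided, with Acvr1, a BMP type I receptor, at 4.04 and 27.9, but Acvr2a at 6.86 and 1.84 and Acvr2b at 8.70 and 0.796 in NSC and SC. Of 5 target factors 4 were higher in SC, or 3 after scaling: Atoh8 (0.788 and 19.8) and Junb (18.2 and 80.2) were among them, and Gata2 (41.2 and 0.209) was higher in NSC. In the E protein list Tcf4 and Tcf12 were higher in NSC.

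Calls of m6A were read next. Each transcript carries a yes or no in 5 regions. Of their names, 5' UTR, CDS (coding sequence) and 3' UTR are plain, while TcSS and TsTS are not explained in the headers. Such calls do not measure how much of the RNA was methylated, and they were read only where the gene reached 1 FPKM. In ESC 9 of 9 members at 1 FPKM or more were called in some region, against 69.0% of all genes at that level. In iPSC 9 of 10 were called (69.2% of all genes), in NSC 7 of 8 (58.0%) and in SC 8 of 10 (66.7%). Bmp4 in ESC, and Bmp4 and Smad7 in NSC, lay under 1 FPKM and carried no call.

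TsTS was the most frequent region. It was called in 7 of 9 members for ESC (48.5% of all genes), 8 of 10 for iPSC (47.5%), 7 of 8 for NSC (36.8%) and 5 of 10 for SC (43.1%). CDS calls came in 3 of 9, 5 of 10, 3 of 8 and 4 of 10 members, beside 40.8%, 45.2%, 43.6% and 46.1% of all genes, so CDS stood near the background. The 3' UTR was called in 2 of 9, 4 of 10, 5 of 8 and 1 of 10 members (26%, 32.3%, 27.1% and 22%). The 5' UTR was called in 1 of 9, 3 of 10, 2 of 8 and 2 of 10 (3.13%, 4.58%, 5.07% and 4.71%). TcSS was called in 2 of 9, 0 of 10, 2 of 8 and 2 of 10 (16.5%, 11.9%, 12% and 12.2%).

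**Figure D5:**
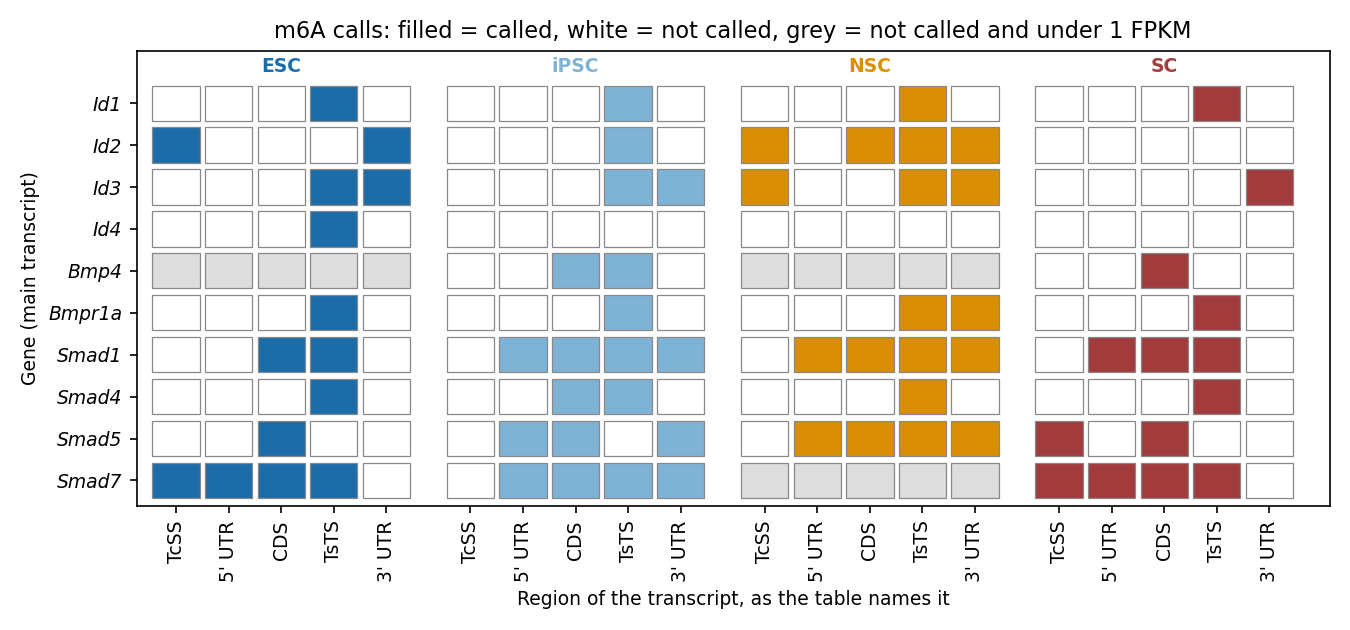
Deposited m6A calls for the main transcript of each of the 10 genes (rows) in the 5 regions of the table (columns) for each cell type (1 m6A library each); filled boxes are called, white ones not called, and grey ones not called in a library where the gene is under 1 FPKM. Id1 is filled in TsTS alone in all 4 cell types, Id2 has no filled box in SC, and 5' UTR boxes are filled in Smad1, Smad5 and Smad7 only.

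Of the 8 members at 1 FPKM or more in all 4 libraries, 6 were called in all 4 cell types (Id1, Id3, Bmpr1a, Smad1, Smad4 and Smad5), against 45.7% of 8259 such genes. Id1 kept one pattern: TsTS and no other region in every cell type, seen in 0.630% of genes, while its expression ranged over 23.7-fold. Its call did not change where it was lowest, at 3.94 FPKM in ESC. Smad4 was called in TsTS in all 4, with CDS added in iPSC, and Bmpr1a in TsTS in all 4, with the 3' UTR added in NSC. TsTS was called in all 4 cell types in 22.2% of genes.

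The calls of Id2 moved between regions and were missing in SC. Id2 was called in TcSS and the 3' UTR in ESC, in TsTS in iPSC, in TcSS, CDS, TsTS and the 3' UTR in NSC and in no region in SC, where its level was highest, at 54.8 FPKM. Calls in the other 3 cell types but not in SC were found in 3.79% of genes. For Id3, too, SC differed: it was called in TsTS and the 3' UTR in ESC and iPSC, with TcSS added in NSC, but in the 3' UTR alone in SC, at 143 FPKM. TsTS called in ESC, iPSC and NSC and not in SC was seen in 4.54% of genes. Both transcripts hold motifs in the coding sequence and in the 3' UTR, the nearest to the stop codon being those printed above.

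Id4 was called in ESC alone, there in TsTS. Calls in ESC alone, in whichever region, were found in 3.26% of genes. The level of Id4 was 4.41 FPKM in NSC, where it had no call, and 3.09 in ESC, or 4.24 and 3.92 after scaling. The part of expression level in the missing calls was not tested. Bmp4 was called in CDS and TsTS in iPSC and in CDS in SC, the libraries in which it exceeded 1 FPKM.

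Smad1 and Smad5 were called in up to 4 regions in a cell type, as was Smad7, and Smad4 in at most 2. CDS was called in all 4 cell types in Smad1 and Smad5, as in 24.4% of genes. Smad1 was called in TsTS too in all 4, in the 5' UTR in iPSC, NSC and SC and in the 3' UTR in iPSC and NSC. Smad7 was called in TcSS, the 5' UTR, CDS and TsTS in both ESC and SC, and in the 5' UTR, CDS, TsTS and 3' UTR in iPSC. Smad6 had the same 4 regions as Smad7 in ESC and in SC, and the 5' UTR, CDS and TsTS in iPSC, and was under 1 FPKM and uncalled in NSC. All 5' UTR calls among the members fell on Smad1, Smad5 and Smad7.

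Smad5 was called in CDS in all 4 cell types, with CDS alone in ESC. To this were added the 5' UTR and 3' UTR in iPSC, the 5' UTR, TsTS and 3' UTR in NSC and TcSS in SC. TsTS was thus called in NSC alone, the library with its highest level. The minor rows had the same CDS calls and differed at the 5' end: in SC the 5' UTR was called for NM_001164041 in place of TcSS, and in NSC TcSS was called for NM_001164042 in place of the 5' UTR. These rows share most of their sequence, and NM_001164041 was called in CDS in ESC although listed at 0 FPKM there. Calls on transcripts under 1 FPKM were not rare: 24.8% of such transcripts were called with ESC RNA, 26.3% with iPSC, 17.5% with NSC and 16.9% with SC.

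Genes with the most similar expression over the 4 libraries were taken by the smallest value of the largest gap in log2(FPKM + 1). Nearest to Id1 were Nckap1 (largest gap 0.48; 4.08, 23.4, 58.0 and 66.7 FPKM over ESC, iPSC, NSC and SC) and Serinc1 (0.48), and nearest to Id2 were Wdr92 (0.15) and Vapb (0.30). Aplp1 (0.41; 38.0, 25.3, 5.35 and 131 FPKM) and Renbp (0.49) were nearest to Id3, and Mmp15 (0.29) and Zfp58 (0.30) to Id4. For the other members these were Zscan18 for Bmp4 (0.46), Klhl21 for Bmpr1a (0.10), Atp9b for Smad1 (0.15), Tm9sf3 for Smad4 (0.20), Gpsm2 for Smad5 (0.28) and Cpt1c for Smad7 (0.48). No other member or pathway gene was among them.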

How the data were processed

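Deposited per transcript were FPKM values from 4 RNA-seq libraries and, per the file headers, a yes/no m6A call for each of 5 regions of 19776 RefSeq transcripts, which the authors derived from the m6A-seq libraries. TopHat2 (2.0.4), CASAVA, Cufflinks (2.0.2) and build mm9 are listed, without roles, per the submitters' processing notes; the peak caller is not given in the sources used here. Read depth is unknown, and counting is not stated to use strand: antisense genes overlap Id4, Bmp4 and Bmpr1a in GENCODE M21, an opposite-strand pseudogene overlaps Smad4, and 3 small RNA genes overlap Smad5 on its strand, so their reads cannot be told apart.

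Symbols came from RefSeq (GRCm38.p6) for 19446 transcripts and from GENCODE M21 for 104, and 226 without one were not used. No mm9 coordinates are printed. Calculations used Python 3.11.15 with pandas 2.3.3 on log2(FPKM + 1), a minimum of 1 FPKM in any library compared and a 2-fold threshold; scaling used the median ratio over 8259 genes at 1 FPKM or more in all 4 libraries. The fold rule was tested on simulated data. A value listed at 0 can be a failed estimate, so no fold is given against it, but counts and medians include such genes.

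Named genes were all members, pathway genes called between the pairs, up to 3 per list in the other comparisons (higher value at 5 FPKM or more), and the nearest patterns (2 for each Id gene, 1 for the others); Tcf3, the shared orders with Smad6 and Bambi, the motifs, the scaled pathway counts and the summed values were picked out after values were seen. The members and lists were chosen with earlier results of these data known. Alternatives covered the pseudocount, filter, fold, transcript sums, scaling and left-out libraries.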

Additional observations from a re-analysis of the deposited data

How the results depend on the processing

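No paired analysis was possible because each cell type has 1 library per assay. Between the pairs, the 3 members lower in the pluripotent libraries became 1 after scaling, 5 at 1.5-fold and 0 at 4-fold. Leaving out 1 library loosened the rule, since fewer libraries had to separate, so no member could lose its call. It gave 3 to 6 lower (5 without iPSC, 6 without NSC) and 0 to 2 higher (Id3 and Smad7, without SC). Over all genes the same step raised the lower count from 1696 to between 2384 and 4949. The higher count rose from 679 to between 969 and 1252. The same left-out libraries moved Id2 from -2.56 (without NSC) to 0.0104 (without SC), Id3 from -2.15 to 2.73, Id4 from 0.50 to -0.77, Bmp4 from -0.49 to 1.31 and Smad7 from -1.66 to 2.83, each between the value without NSC and that without SC; those of Bmp4 include its NSC value listed at 0 unless NSC was left out. Signs also turned without ESC for Id3 (-0.38) and Smad7 (-0.22), and without iPSC for Id4 (0.23) and Bmp4 (-0.49). Scaling turned Id4 to 0.28 here, and Id1, Bmpr1a and Smad4 to 0.31, 0.13 and 0.47 between NSC and SC. Between ESC and iPSC, 0 genes stayed higher and 1 lower in ESC at 4-fold. Between NSC and SC, the NSC-high count was 1 with pseudocount 5, 1 at 5 FPKM or more and 0 at 4-fold, and the SC-high count 3 with pseudocount 5 and 3 at 4-fold. At 5 FPKM or more, 4 members were called for m6A in ESC in place of 9, and CDS calls over all cell types fell from 15 to 9, since fewer genes were read. Over all genes, counts ranged from 264 to 1252 higher and 414 to 4949 lower in the pluripotent pair, from 170 to 3010 and 232 to 2935 in ESC against iPSC, and from 658 to 2734 and 1805 to 5961 in NSC against SC. Other causes were not tested. After scaling, an alternative for the orders that was chosen after seeing the data, the members highest in SC went from 7 to 3.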

Other observations

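A TsTS call was more frequent where GGAC followed by A, C or T lay within 200 bases of the stop codon. In ESC 54.9% of genes at 1 FPKM or more with such a motif were called there and 31.3% of those without; for iPSC the shares were 54.1% and 29.7%, for NSC 41.9% and 24.2%, and for SC 48.5% and 29.2%, as a description over genes. Each of the 10 members held such a motif, yet only 5 of 10 had a TsTS call in SC. Of the others, Id2 and Id4 carried 0 calls there, and Id3, Bmp4 and Smad5 were called in other regions only. Among members at 1 FPKM or more, Id2 and Smad5 had no TsTS call in ESC, Id4 and Smad5 none in iPSC and Id4 none in NSC. Over the pathway lists, a call in some region was found for 24 of 26 expressed genes with ESC RNA (92.3%, against 69.0% of all expressed genes), for 26 of 27 with iPSC (96.3% against 69.2%), for 17 of 24 with NSC (70.8% against 58.0%) and for 33 of 36 with SC (91.7% against 66.7%).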
